A study of Mus musculus with 6 samples.

Results

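This account covers 82 potassium channel genes of the mouse, read across the nucleus classes of the adrenal gland. The members were all gene symbols that start with a potassium channel subunit prefix (Kcna to Kcnv, for pore-forming and accessory subunits) followed by digits, leaving out Kcnk3, Kcnk9 and Kcnj5. They made up 82 of the 30406 genes counted in every library, and none was chosen by its level. Over the 6 libraries, 5 members had no UMI (unique molecular identifier, a count of captured RNA molecules), 11 had 1 to 9 UMIs and 24 had at least 1000.

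Potassium channels let potassium leave the cell and so set its resting voltage and end its action potentials. In chromaffin cells of the medulla, voltage-gated, calcium-activated and KCNQ channels shape the firing that drives catecholamine release. In zona glomerulosa cells, the aldosterone-producing outer layer of the cortex, a high resting potassium conductance lets small changes in blood potassium alter membrane voltage and calcium entry. The genes form families: voltage-gated Kv channels and their silent modifiers, KCNQ and EAG channels, calcium-activated BK and SK channels, sodium-activated channels, inward rectifiers and 2-pore-domain leak channels.

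The libraries held nuclei sorted by DAPI, a DNA stain, from frozen whole adrenal glands of female C57BL/6 J mice aged 10 to 11 months, 1 pair of glands per library. There were 2 libraries of Tmem127 KO mice (KO 1 and KO 2), 3 of WT mice (WT 1 to WT 3), and 1 library titled WT whose genotype field reads KO, which was assigned to neither group. TMEM127 is a membrane protein whose loss predisposes people to phaeochromocytoma, a tumour of the medulla. The labels give neither the allele nor the deleted part nor whether the loss is in all cells, and no treatment is named. Tmem127 itself was at 45.9 and 45.0 CPM (UMIs of a gene scaled by the total UMIs of the nuclei summed) in KO 1 and KO 2, at 37.998, 38.2 and 36.1 CPM in WT 1 to WT 3, and at 36.4 CPM in the unassigned library. It was therefore not lower in the libraries labelled KO, and a 3′ tag outside a deleted part checks nothing, so the genotypes are those of the labels. The labels do not say that a library is more than 1 mouse, so a library was taken as the replicate.

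Total UMIs per library ran from 4825169 (KO 2) to 43377724 (WT 1), and pairs of libraries shared 2 to 9 barcodes. Clustering of 21035 nuclei, done without any Kcn gene and without the partner subunits named further on, gave 23 clusters. The members therefore took no part in defining the classes. Cortex nuclei were those of zona glomerulosa-like, zona fasciculata-like and inner cortex-like clusters, medulla nuclei those of 2 chromaffin-like clusters, and other nuclei all remaining named classes. Cluster 3, with 1681 nuclei led by Cthrc1 and Oca2, passed too few markers for a name and stands outside these 3 sums. Of the 2 zona glomerulosa-like clusters, cluster 4 had 9 of 10 markers and cluster 2 had 6 of 10, with none among its 10 leading genes. Hepatocyte-like nuclei, 46 of 51 of them in KO 1, were among the other nuclei.

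Free RNA sets a floor for every level given here. Of 5 chromaffin genes (Th, Dbh, Chga, Chgb and Ddc), cortex nuclei carried 0.310 to 4.16% of the medulla level, depending on gene and library. Of 5 steroidogenic genes (Star, Cyp11a1, Hsd3b1, Cyp21a1 and Scarb1), medulla nuclei carried 2.38 to 24.5% of the cortex level. A member found in a class within these shares of its level elsewhere is at background there. Runs of 5 values give the CPM of KO 1, KO 2, WT 1, WT 2 and WT 3, and means are given ± SD over these 5 libraries. Folds are log2 ± SE, with fold and p-value from edgeR's quasi-likelihood test and p-values adjusted over all genes tested. The test gives no SE, so it was computed as the absolute fold over the square root of the test's F statistic. Where a gene had no UMI in a class, fold and SE depend on how edgeR treats zeros.

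Most potassium channel genes that could be tested separated medulla from cortex. Of the 46 members tested in the 3 broad sums, 29 were higher in medulla than in cortex and 7 were lower. Over all 13658 genes tested, 27.9% were higher and 29.7% lower. Against other nuclei, medulla had 26 members higher and 15 lower, beside 29% and 32.2% of all genes. Cortex against other nuclei gave 10 members higher and 25 lower, beside 31.5% and 31.5% of all genes. The 46 include members that passed the low-count filter through the class where they are high, and the other 36 were not tested, so these are counts among tested members only.

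**Figure D1:**
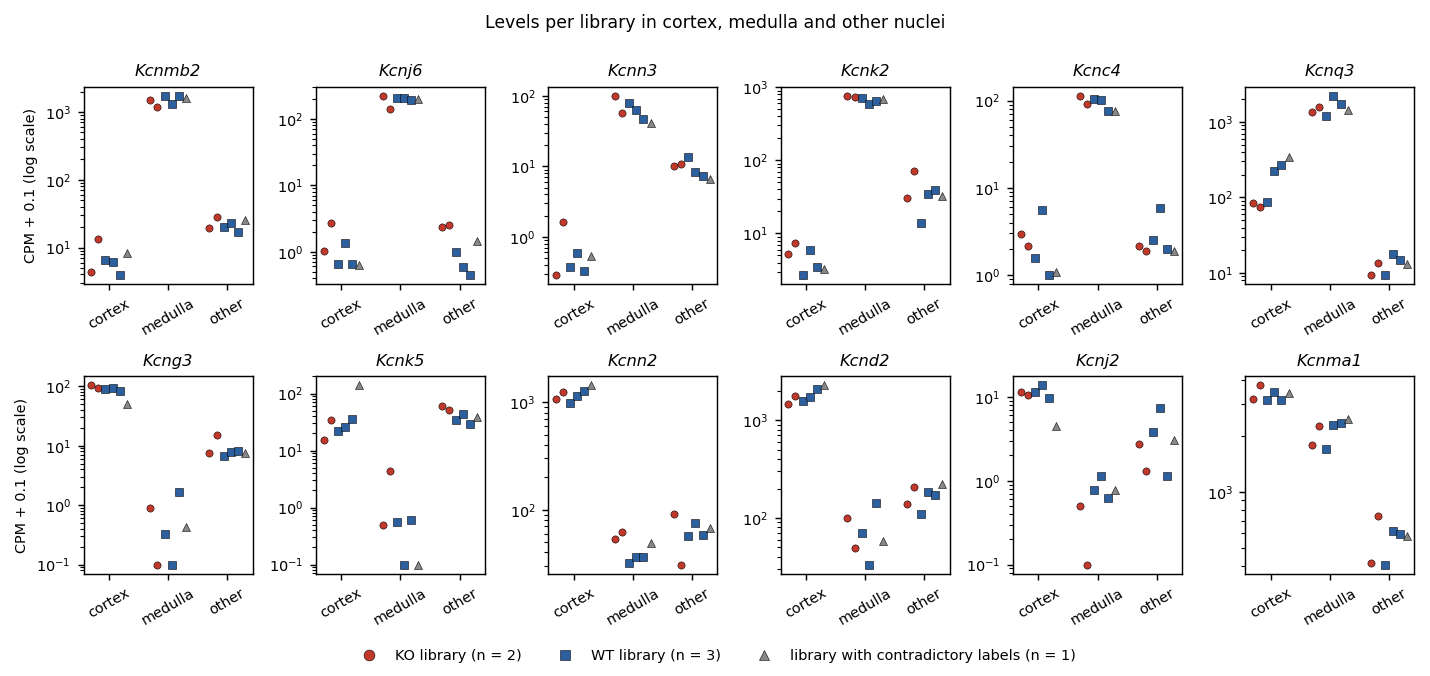
CPM + 0.1 on a log axis for 12 members in cortex, medulla and other nuclei, 1 point per library (circles KO, squares WT, triangle the library with contradictory labels). Kcnmb2, Kcnj6, Kcnn3, Kcnk2, Kcnc4 and Kcnq3 were highest in medulla nuclei of every library, and the others except Kcnk5 were highest in cortex nuclei of all 6. Kcnk5 in cortex nuclei of the unassigned library stands apart.

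The BK channel opens with voltage and calcium, and its subunits split between the tissues. Kcnma1, its pore-forming subunit, was high in both, at 3167, 3765, 3139, 3449 and 3154 CPM in cortex nuclei and 1790.0, 2262, 1706, 2286 and 2356 CPM in medulla nuclei. No medulla library reached a cortex library, and the fold was -0.62 ± 0.11 (adjusted p = 1.5e-04). Medulla nuclei carried 54.3 to 74.7% of the cortex level, above the share of every steroidogenic reference gene. Kcnmb2, a beta subunit that makes BK channels inactivate, was at 1512, 1181, 1698, 1334 and 1738 CPM in medulla nuclei and at 4.199, 13.4, 6.49, 5.93 and 3.83 CPM in cortex nuclei. Its fold of 8.09 ± 0.26 was the largest rise among the members (adjusted p = 3.0e-12), and its cortex level was 0.220 to 1.13% of the medulla level, at or below the range of free RNA. In other nuclei Kcnmb2 averaged 21.6 ± 4.30 CPM, at 0.984 to 2.40% of its medulla level, within the range of free RNA. Kcnu1, which encodes the sperm channel Slo3, was low throughout, at 6.40 ± 2.31 CPM in medulla and 3.31 ± 1.37 CPM in cortex nuclei, a called difference (1.18 ± 0.32, adjusted p = 0.0054).

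Calcium-activated SK channels, which need no voltage to open, differed in subunit between the tissues. Kcnn2 was at 1071, 1234, 972, 1146 and 1269 CPM in cortex nuclei and 53.4, 61.9, 32.1, 36.2 and 36.0 CPM in medulla nuclei (-4.69 ± 0.23, adjusted p = 2.1e-10). Kcnn3 was at 100.4, 57.6, 78.2, 62.1 and 46.3 CPM in medulla nuclei and at 0.187, 1.54, 0.274, 0.494 and 0.225 CPM in cortex nuclei (7.82 ± 0.28, adjusted p = 8.3e-12). The ranges of cortex and medulla libraries were far apart for both genes, in opposite directions. Kcnn2 in medulla nuclei was 2.84 to 5.02% of its cortex level, within the range of free RNA. Kcnn4, the intermediate-conductance channel of blood cells, had no UMI in medulla nuclei of the 5 grouped libraries and averaged 6.42 ± 2.54 CPM in other nuclei, at least 23.5-fold higher than the floor of 3 UMIs over the medulla sum (adjusted p = 0.0013).

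Among the pore-forming Kv genes, 8 of 11 tested members were higher in medulla than in cortex and 1, Kcnd2, was lower. Kcnd2 encodes Kv4.2, an A-type channel that opens below the firing threshold. It was at 1471, 1788, 1589.8, 1722 and 2087 CPM in cortex nuclei and at 99.96, 48.9, 69.6, 33.1 and 141 CPM in medulla nuclei (-4.35 ± 0.26, adjusted p = 2.1e-09). The medulla level was 1.92 to 6.80% of the cortex level, at or below the range of free RNA. Its relatives ran the other way: Kcnd1 averaged 11.4 ± 6.20 CPM in medulla and 0.950 ± 0.937 CPM in cortex nuclei (3.81 ± 0.32, adjusted p = 9.8e-08). Kcnd3 was higher in medulla than in cortex too (1.11 ± 0.24, adjusted p = 0.0011), but its main level lay in other nuclei, at 209 ± 59.2 CPM.

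Kv3 genes encode fast channels that allow rapid repolarisation. Kcnc1 was at 17.7, 21.6, 13.6, 29.0 and 13.9 CPM in medulla nuclei and averaged 0.271 ± 0.139 CPM in cortex nuclei (6.21 ± 0.34, adjusted p = 6.4e-10). Kcnc4 was at 114, 92.1, 104, 101 and 76.7 CPM in medulla nuclei and averaged 2.55 ± 1.77 CPM in cortex nuclei (5.58 ± 0.24, adjusted p = 6.1e-11). Neither gene overlapped between cortex and medulla libraries. Kcnc2 averaged 7.91 ± 6.34 CPM in medulla nuclei, but its libraries spread widely, at 11.6, 14.4, 1.13, 1.03 and 11.3 CPM (2.66 ± 0.59, adjusted p = 0.0013), and its highest class was endothelial-like, at 28.6, 17.3, 14.2, 24.4 and 24.3 CPM. The delayed rectifier Kcnb2 was at 426, 327, 555, 447 and 412 CPM in medulla and 8.58, 9.78, 11.5, 9.88 and 6.20 CPM in cortex nuclei (5.66 ± 0.21, adjusted p = 1.2e-11). Kcna1 and Kcna6 differed from both tissues through other nuclei and are described with the Schwann-like class.

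Silent Kv subunits form no channel alone and modify other Kv channels. Kcng3 was at 103, 93.7, 89.0, 94.3 and 83.1 CPM in cortex nuclei and had 6 UMIs in all in medulla nuclei, at 0.803, 0, 0.226, 0 and 1.54 CPM. Its fold of -7.16 ± 0.31 was the largest fall from cortex to medulla among the members (adjusted p = 5.0e-11). In other nuclei Kcng3 averaged 8.98 ± 3.44 CPM, at 7.08 to 16.1% of its cortex level, within or below the range of free RNA. Kcng2 went the other way, at 16.5, 12.96, 14.7, 14.5 and 9.78 CPM in medulla nuclei against 0.434 ± 0.335 CPM in cortex nuclei (5.41 ± 0.33, adjusted p = 2.6e-09). Of the 10 silent members 3 were tested, and the last, Kcns3, did not differ by the test between medulla and cortex (0.88 ± 0.56, adjusted p = 0.20).

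Kcnq3 and Kcnq5 encode subunits of the M current, which keeps excitable cells from firing repeatedly. Kcnq3 was at 1352, 1589, 1199, 2232 and 1708 CPM in medulla nuclei and 85.2, 74.7, 86.5, 221 and 271 CPM in cortex nuclei (3.67 ± 0.20, adjusted p = 5.6e-10). Kcnq3 in cortex was 4.70 to 15.9% of its medulla level, above the free RNA range in every library, and it also exceeded other nuclei (3.61 ± 0.22, adjusted p = 2.8e-09). Kcnq5 was at 250.5, 263, 351, 261 and 201 CPM in medulla nuclei and 5.599, 7.21, 3.79, 4.45 and 4.73 CPM in cortex nuclei (5.88 ± 0.18, adjusted p = 1.3e-12). Kcnq1, the pore of the slow cardiac and epithelial current, was at 143 ± 59.7 CPM in other nuclei, with no called difference between medulla and cortex (-1.19 ± 0.63, adjusted p = 0.12).

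EAG-family genes encode slowly gated channels that include ERG, the product of Kcnh2. Of the 6 tested, 5 were higher in medulla than in cortex and 0 were lower. Kcnh2 was at 35.7, 25.9, 37.1, 36.2 and 30.4 CPM in medulla and 20.9, 11.8, 13.1, 13.3 and 7.77 CPM in cortex nuclei (1.43 ± 0.21, adjusted p = 3.7e-05). Kcnh3, Kcnh5, Kcnh7 and Kcnh8 rose by 5.02, 3.43, 3.03 and 3.08 from low levels, with medulla means of 9.15, 5.31, 10.1 and 8.64 CPM. For Kcnh7 WT 1 stands apart in medulla nuclei, where the libraries were at 8.83, 5.76, 24.4, 7.24 and 4.12 CPM. Kcnh1 did not pass the test (-0.40 ± 0.35, adjusted p = 0.34).

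Inward rectifiers hold the resting voltage, and the G protein-gated ones are opened by transmitter receptors. Kcnj6, a G protein-gated subunit, was at 224, 143, 206, 209 and 193 CPM in medulla nuclei and at 0.933, 2.57, 0.548, 1.23 and 0.563 CPM in cortex nuclei (7.99 ± 0.27, adjusted p = 4.8e-12). Kcnj3, which forms channels with it, was at 99.6, 61.9, 84.1, 49.7 and 53.5 CPM in medulla and 3.08, 2.06, 1.10, 3.46 and 3.49 CPM in cortex nuclei (4.94 ± 0.41, adjusted p = 9.0e-08). The cortex level of Kcnj3 was 1.30 to 6.96% of its medulla level, above the range of free RNA in WT 2 and WT 3, and that of Kcnj6 was 0.266 to 1.81%. Kcnj2, a strong constitutive rectifier, was the member of this group lower in medulla, at 0.401, 0, 0.678, 1.03 and 0.515 CPM against 11.3, 10.3, 11.3, 13.6 and 9.57 CPM in cortex nuclei (-4.22 ± 0.45, adjusted p = 1.1e-06). Its paralog Kcnj12 rose by 3.47 ± 0.18 to 37.2 ± 8.50 CPM in medulla nuclei (adjusted p = 3.0e-10). Kcnj10 and Kcnj15 had no UMI in medulla nuclei of the 5 grouped libraries. Against the floor of 3 UMIs they were at least 29.8-fold and at least 16.3-fold higher in other nuclei (adjusted p = 1.7e-05 and 2.7e-04). Kcnj11, the pore of the ATP-sensitive channel of endocrine cells, had 4 UMIs in the 6 libraries and was not tested.

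The 2-pore-domain genes encode leak channels. Kcnk2, the stretch-sensitive TREK-1, was at 765, 731, 706, 588 and 651 CPM in medulla nuclei and at 5.13, 7.21, 2.60, 5.93 and 3.38 CPM in cortex nuclei (7.40 ± 0.30, adjusted p = 2.7e-11). Kcnk13, THIK-1, was at 42.2, 51.8, 44.1, 56.9 and 51.5 CPM in medulla and 0.653, 1.54, 0.822, 1.23 and 0.451 CPM in cortex nuclei (6.00 ± 0.24, adjusted p = 1.9e-11). Kcnk5, the alkaline-activated TASK-2, and Kcnk1, TWIK-1, were lower in medulla, with folds of -5.07 ± 0.54 and -3.93 ± 0.41, from cortex means of 26.7 ± 8.64 and 8.85 ± 2.70 CPM to 7 and 5 UMIs in all medulla nuclei. Of the genes the rule leaves out, Kcnk3 averaged 1175 ± 75.2 CPM in cortex nuclei and 103 ± 29.0 CPM in medulla nuclei, and Kcnk9 averaged 404 ± 77.7 and 376 ± 89.3 CPM there. Kcnj5 averaged 1.06 ± 0.401 CPM in cortex nuclei and had no UMI in medulla nuclei.

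Kcnk10, TREK-2, differed between sets of libraries more than between tissues. Its level in cortex nuclei was 1.31, 85.0, 0.685, 80.3 and 58.7 CPM and in medulla nuclei 1.204, 99.3, 0.226, 84.9 and 77.7 CPM. The low libraries, KO 1 and WT 1, were those counted with Cell Ranger 4.0.0, and the high ones were counted with 3.1.0, per the file headers, which list different numbers of genes. Over the 3 sums it averaged 0.902 CPM with 4.0.0 and 75.0 CPM with 3.1.0, a ratio of 83.1. Of the 49 members with at least 100 UMIs, 1, Kcnk10 itself, differed by at least 3-fold with no overlap between the sets. The rise of Kcnk10 in medulla over other nuclei (0.39 ± 0.16, adjusted p = 0.044) was called with nearly all of its UMIs in libraries counted with 3.1.0.

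Sodium-activated channels, the genes Kcnt1 and Kcnt2, give a slow outward current in firing cells. Kcnt1 was modestly higher in medulla, at 27.7, 30.2, 16.3, 10.3 and 17.5 CPM against 12.97, 14.9, 13.9, 12.6 and 7.43 CPM in cortex nuclei (0.78 ± 0.21, adjusted p = 0.0060), and KO 1 and KO 2 were the highest medulla libraries. Kcnt2 averaged 8.39 ± 2.93 CPM in medulla and 2.36 ± 0.942 CPM in cortex nuclei, a called difference (2.06 ± 0.32, adjusted p = 6.5e-05), but its level in other nuclei was 248 ± 86.1 CPM. None of the 4 Kcne members, which encode small accessory subunits of Kv and KCNQ channels, was tested between these sums.

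Cortex against other nuclei had 10 called rises. Kcnn2 (4.36 ± 0.22), Kcng3 (3.64 ± 0.17), Kcnq3 (3.61 ± 0.22), Kcnd2 (3.61 ± 0.25), Kcnk1 (3.06 ± 0.28) and Kcnma1 (2.80 ± 0.11) had the largest folds. Kcna1 had no UMI in cortex nuclei of the 5 grouped libraries and was at least 79.5-fold higher in other nuclei against the floor of 3 UMIs over the cortex sum (adjusted p = 3.8e-07). Kcnt2 (-6.62 ± 0.23), Kcnk6 (-6.34 ± 0.50), Kcnj10 (-5.55 ± 0.44), Kcnk13 (-5.48 ± 0.23) and Kcna6 (-5.07 ± 0.49) were also lower in cortex. Among the largest rises of medulla over other nuclei were those of Kcnj6 (7.65 ± 0.28), Kcnq3 (7.28 ± 0.24) and Kcnmb2 (6.42 ± 0.24).

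Most of the tested subunits outside the members were also higher in medulla than in cortex. Of 17 listed partner proteins of potassium channels, 14 were tested and 10 were higher and 2 lower in medulla than in cortex, with a median log2 fold of 3.03 beside -0.06 over all genes. Kcnip4, whose product binds Kv4 channels, was at 5614, 4912, 5452, 5339.6 and 4022 CPM in medulla and 24.4, 31.4, 22.8, 23.0 and 21.0 CPM in cortex nuclei (7.79 ± 0.19, adjusted p = 2.3e-13). Dpp6, another Kv4 partner, rose by 6.15 ± 0.25 to 1399 ± 89.9 CPM. These partners were thus high in medulla nuclei, where Kcnd2 was at background. Abcc8, the sulfonylurea receptor that pairs with Kcnj11, averaged 9.96 ± 4.99 CPM in medulla nuclei and 0.0369 ± 0.0506 CPM in cortex nuclei (6.67 ± 0.46, adjusted p = 9.2e-09). The lower genes were Lrrc55, a BK gamma subunit (-3.51 ± 0.44), and Kcnab3 (-2.09 ± 0.40). Of 33 listed calcium, sodium and cation channel genes, 27 were tested, with 19 higher and 5 lower in medulla and a median of 2.74. Among the higher were Cacna1b (7.72 ± 0.19), Scn3a (7.34 ± 0.26) and Nalcn (6.93 ± 0.24), and among the lower Cacna1c (-5.13 ± 0.18) and Cacna1h (-1.55 ± 0.16).

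Within the cortex, 21 members were tested between zona glomerulosa-like and zona fasciculata-like nuclei. The zona fasciculata is the glucocorticoid-producing middle layer. Of the 21, 14 were higher in zona glomerulosa-like nuclei and 3 were lower, beside 21.6% and 21.9% of 11181 genes tested. Kcng3 was at 256, 203, 209.8, 217 and 209.6 CPM in zona glomerulosa-like nuclei and 6.05, 6.02, 2.85, 4.63 and 3.29 CPM in zona fasciculata-like nuclei (5.81 ± 0.16, adjusted p = 4.0e-10). Kcnd2 was at 3348, 3672, 3550.1, 3688 and 4643 CPM and 330.3, 302, 241, 343 and 615 CPM (3.48 ± 0.13, adjusted p = 2.7e-09). The libraries of the 2 zones lay far apart for both genes. Kcnj12 had 166 UMIs in zona glomerulosa-like and 6 in zona fasciculata-like nuclei (4.76 ± 0.46, adjusted p = 5.8e-06). Kcnq3 was at 189, 135, 184, 483 and 659 CPM and 22.0, 30.1, 21.0, 33.0 and 33.9 CPM (3.49 ± 0.22, adjusted p = 1.7e-07), with WT 2 and WT 3 high in the outer zone. Kcnk1 (2.35 ± 0.24) and Kcnj2 (2.14 ± 0.21) were higher there too, at 17.1 ± 5.11 and 21.0 ± 1.95 CPM.

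Smaller rises in the zona glomerulosa-like nuclei were those of Kcnma1 (0.88 ± 0.11) and Kcnn2 (0.65 ± 0.10), which both zones held at high levels. Kcnma1 was at 4518, 4604, 4687, 4671 and 5202 CPM against 2543, 3269.8, 2427, 2924 and 2264 CPM, and Kcnn2 at 1468, 1496, 1253, 1526 and 1989 CPM against 961, 1172, 911, 1017 and 988 CPM. For each gene every zona glomerulosa-like value exceeded every zona fasciculata-like value. Lower members included Kcnh1, at 1.195, 1.15, 0.657, 0.582 and 0.871 CPM against 4.43, 8.43, 6.13, 8.68 and 5.31 CPM (-2.71 ± 0.34, adjusted p = 5.0e-05), and Kcnd3 (-0.81 ± 0.26, adjusted p = 0.024). The call of Kcnd3 was lost under 5 alternatives, 3 of which left out KO 1, KO 2 or WT 1.

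Several members had stepwise lower levels when the unnamed cluster 3 and the inner cortex were set beside the zones, with no test of the steps. Kcnd2 averaged 3780.3, 1728, 366 and 67.4 CPM in zona glomerulosa-like, cluster 3, zona fasciculata-like and inner cortex-like nuclei. Kcng3 averaged 219, 42.9, 4.57 and 2.09 CPM in the same order, and Kcnk1 17.1, 13.2, 3.93 and 0.182 CPM. For Kcng3 the zona fasciculata-like and inner cortex-like libraries overlapped, and for Kcnk1 the zona glomerulosa-like and cluster 3 libraries did. Kcnn2 averaged 1547 CPM in zona glomerulosa-like and 1714 CPM in cluster 3 nuclei, whose libraries overlapped, then 1009.9 and 409 CPM. Kcnk5 had its cortical peak in inner cortex-like nuclei, at 29.3, 197, 61.2, 71.2 and 116 CPM, where KO 1 was lowest and KO 2 highest.

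**Figure D2:**
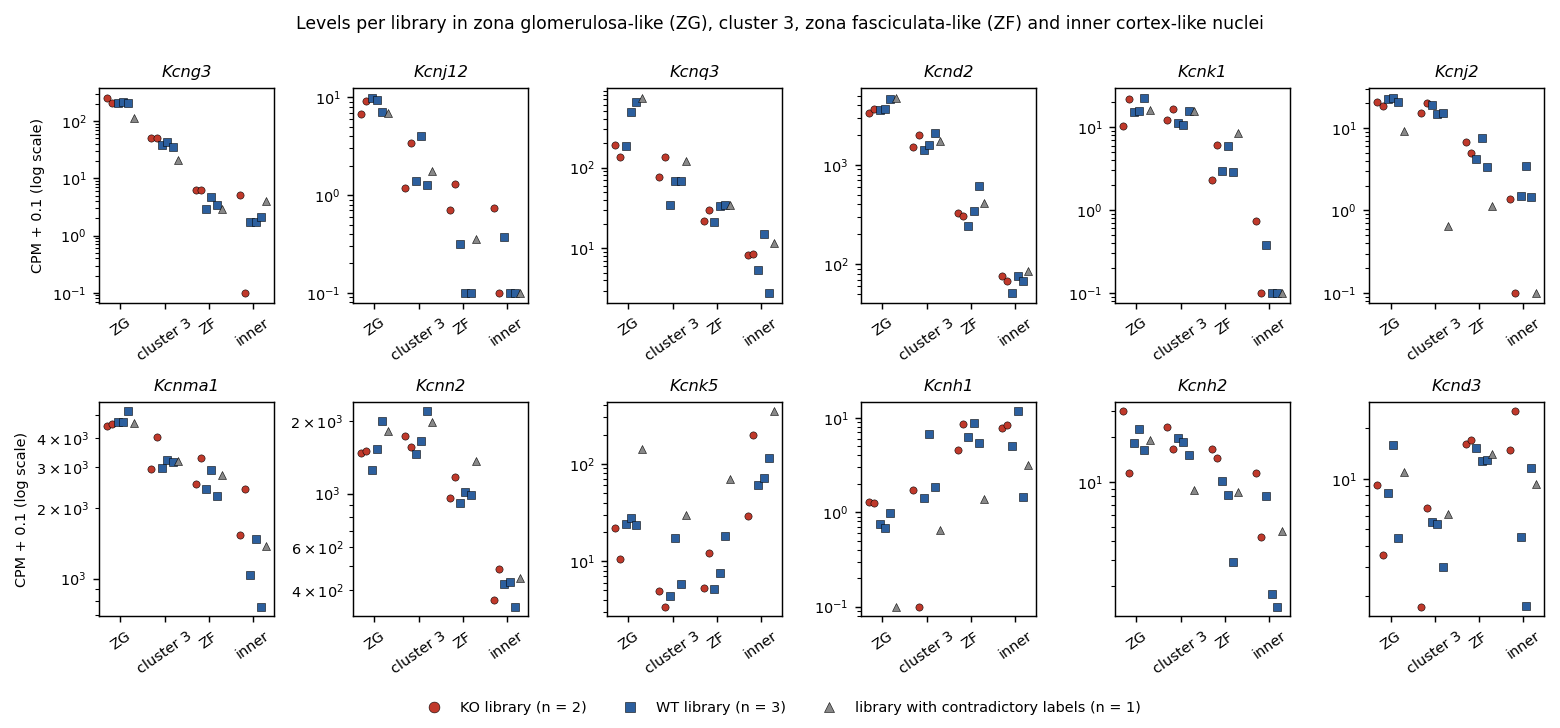
CPM + 0.1 on a log axis for 12 members in zona glomerulosa-like, cluster 3, zona fasciculata-like and inner cortex-like nuclei, 1 point per library. Kcnd2 and Kcnma1 decline in this order in all 6 libraries, Kcnk5 is highest in inner cortex-like nuclei of all 6, and Kcnh1 has its lowest mean in the zona glomerulosa-like class.

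The 2 chromaffin-like clusters differed in their channels as they did in Pnmt, the enzyme that makes adrenaline. Pnmt was at 223, 783, 352, 676 and 618 CPM in cluster 7 (1065 nuclei) and at 5.41, 42.8, 9.33, 41.9 and 12.2 CPM in cluster 14 (380 nuclei). Of 22 members tested, 8 were higher in cluster 14 and 3 were higher in cluster 7, beside 8.83% and 9.67% of 7852 genes tested. Kcnj3 was at 316, 257, 233, 177 and 254 CPM in cluster 14 and 7.995, 12.6, 15.5, 13.3 and 12.998 CPM in cluster 7 (-4.33 ± 0.19, cluster 7 against 14, adjusted p = 2.9e-11). Kcnn3 was at 299, 235, 212, 214 and 180.4 CPM and 16.6, 12.6, 16.8, 18.6 and 19.2 CPM (-3.75 ± 0.17, adjusted p = 2.9e-11). The medulla levels of these 2 genes therefore came mostly from the smaller, Pnmt-low cluster. Kcnq5 (-2.95 ± 0.14), at 642, 1013, 819.9, 791 and 700.2 CPM in cluster 14, and Kcnb2 (-2.84 ± 0.18), at 1237, 942, 1289.7, 1339 and 1254 CPM there, were higher in the same cluster. Kcnj6 was at 343, 235, 324, 437 and 385 CPM in cluster 14 and 174, 119, 151, 144 and 154 CPM in cluster 7 (-1.22 ± 0.11, adjusted p = 2.8e-07), and Kcnk13 (-0.87 ± 0.19) and Kcnj12 (-0.65 ± 0.18) differed less.

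The Pnmt-high cluster 7 had more Kcnma1, at 2059, 2448, 1958, 2565 and 2587 CPM against 1153, 1527, 1156, 1311 and 1214 CPM (0.85 ± 0.10, adjusted p = 6.8e-06). Kcnd2 averaged 94.5 ± 50.4 CPM there against 26.5 ± 17.5 CPM in cluster 14 (1.81 ± 0.26, adjusted p = 3.4e-05), both within the share that free RNA gives of the cortex level. Kcnq3 was called (0.75 ± 0.20, adjusted p = 0.0097), but its libraries overlapped, at 1284, 1647, 1494, 2512 and 1908 CPM in cluster 7 and 1512, 1363, 558, 1256 and 722 CPM in cluster 14, and the call was lost without WT 1. The other 11 members did not pass. Among them Kcnmb2 was at 1424, 1169, 1845, 1302 and 1657 CPM and 1719, 1227, 1379, 1446 and 2137 CPM (-0.11 ± 0.12, adjusted p = 0.64), and Kcnk2 had a fold of 0.14 ± 0.14.

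**Figure D3:**
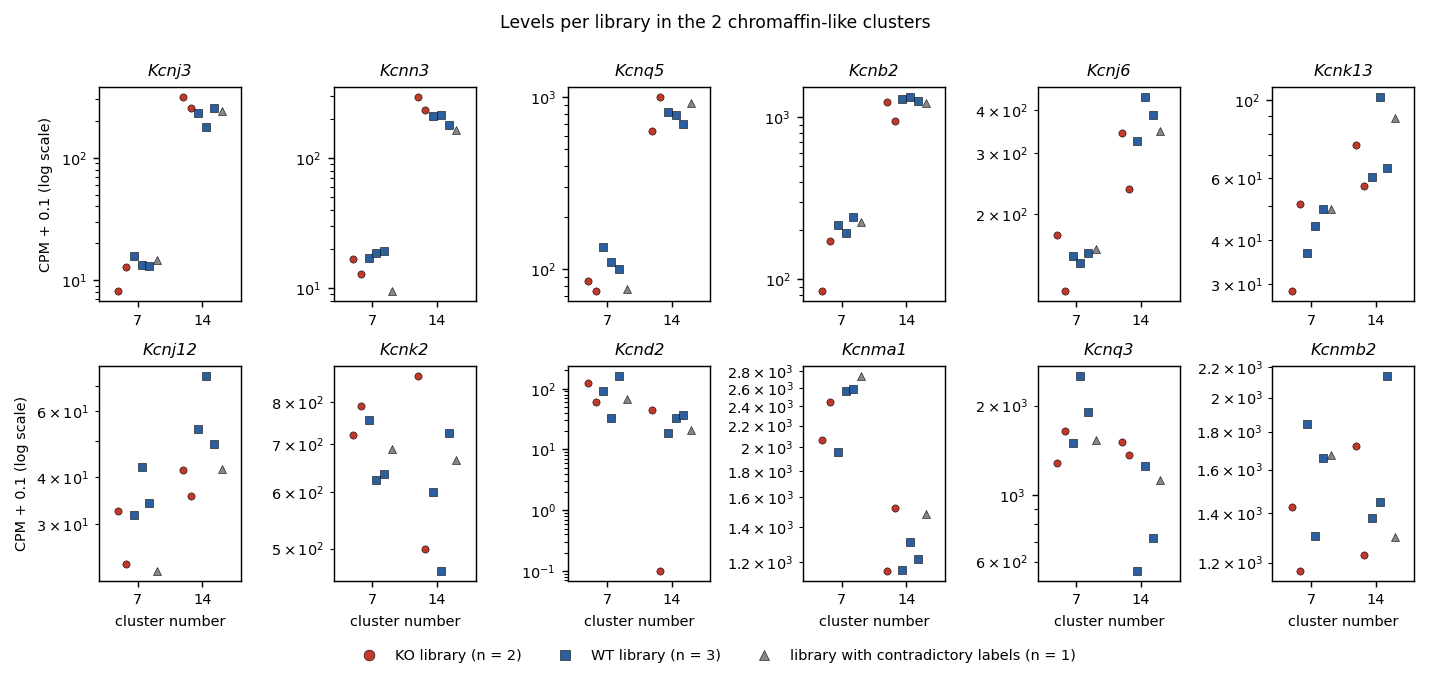
CPM + 0.1 on a log axis for 12 members in chromaffin-like clusters 7 and 14, 1 point per library. Kcnj3, Kcnn3, Kcnq5 and Kcnb2 are higher in cluster 14 of every library, Kcnma1 is higher in cluster 7, and the libraries of Kcnmb2 overlap.

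Across 12 classes with at least 20 nuclei in each grouped library, 41 members were tested against the mean of the other classes, and each was higher in at least 1 class, as were 94.8% of all 11665 genes tested. Of the 41, Kcna2 and Kcnmb4 had not passed the filter in the broad sums. Chromaffin-like and Schwann or sustentacular-like nuclei each held the highest mean for 10 members, beside 8.92% and 8.57% of all genes, zona glomerulosa-like nuclei for 5 (4.9% of all genes) and pericyte or smooth muscle-like nuclei for 4 (4.66%). For 25 of the 41, every library of the leading class exceeded every library of the next, which held for 23% of all genes. In the counts per class that follow, the shares are those of the 11665 genes. Chromaffin-like nuclei had 21 members higher and 5 lower than that mean, beside 31.1% and 22.2% of genes. Schwann or sustentacular-like nuclei had 14 members higher and 5 lower than that mean, beside 15.1% and 11.3% of genes. Zona glomerulosa-like nuclei had 11 members higher and 10 lower than that mean, beside 29.5% and 20.6% of genes. Zona fasciculata-like nuclei had 8 members higher and 10 lower than that mean, beside 31.5% and 20% of genes. Inner cortex-like nuclei had 5 members higher and 10 lower than that mean, beside 26.7% and 20% of genes. Gata4 stroma-like nuclei had 16 members higher and 3 lower than that mean, beside 23.6% and 13.2% of genes. Capsule or fibroblast-like nuclei had 15 members higher and 5 lower than that mean, beside 23.9% and 10.9% of genes. Pericyte or smooth muscle-like nuclei had 12 members higher and 4 lower than that mean, beside 18.8% and 9.36% of genes. Endothelial-like nuclei had 8 members higher and 11 lower than that mean, beside 26.4% and 22.3% of genes. Macrophage-like nuclei had 5 members higher and 13 lower than that mean, beside 26.4% and 24.1% of genes. T or NK-like nuclei had 7 members higher and 2 lower than that mean, beside 13.8% and 16.4% of genes. Adipocyte-like nuclei had 5 members higher and 11 lower than that mean, beside 24.9% and 24.4% of genes.

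**Figure D4:**
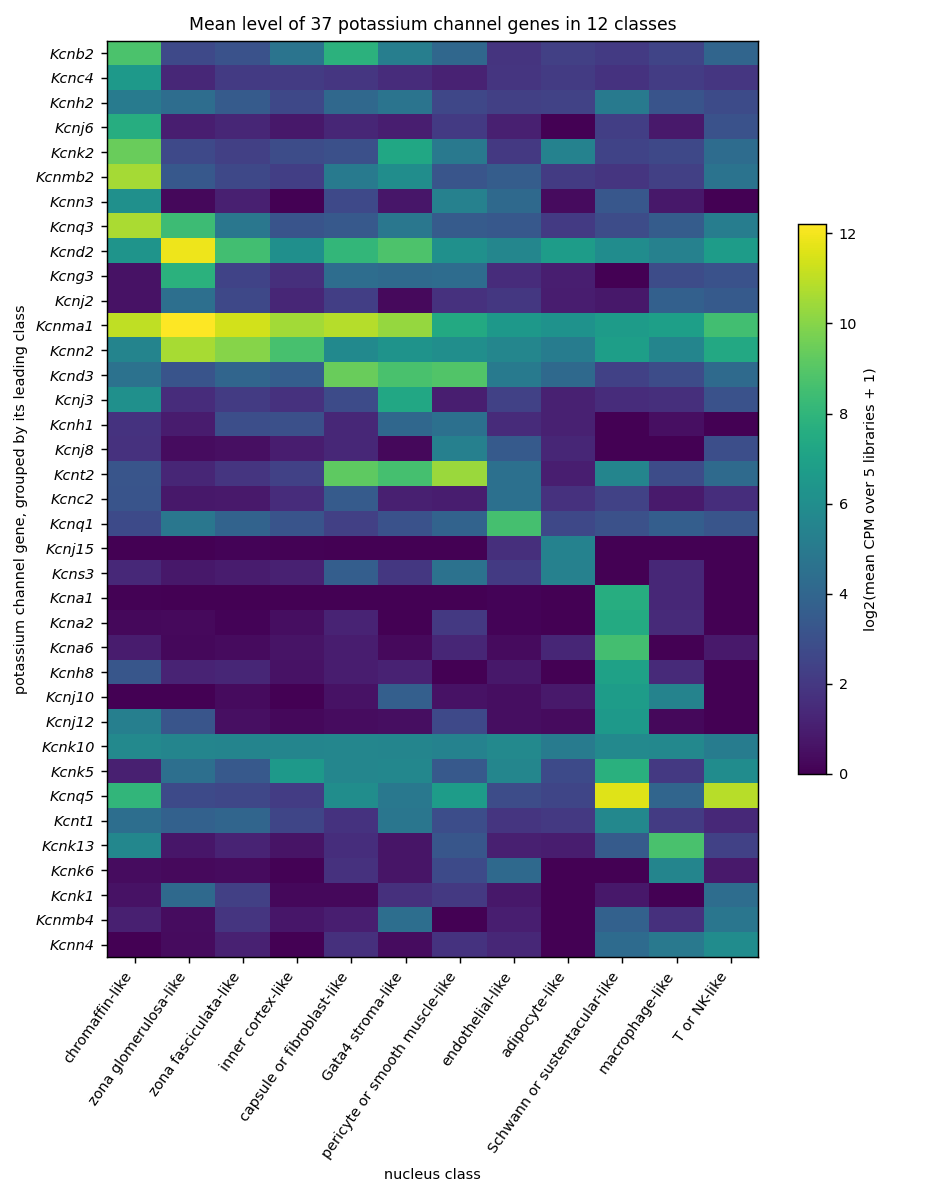
Mean level of 37 of the 41 members tested in 12 classes, as log2(mean CPM over 5 libraries + 1), with rows grouped by the class of the highest mean. Blocks of bright cells mark the chromaffin-like, zona glomerulosa-like and Schwann or sustentacular-like classes, Kcnma1 is bright in several classes, and Kcnk10 differs little between the 12.

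Schwann or sustentacular-like nuclei, the glia of the medulla and its nerves, were 176 in all and had Shaker-type Kv1 channels, which sit beside nodes of Ranvier in myelinated axons and also occur in glia. Kcna1 was at 161, 155, 187, 161 and 296 CPM in this class (10.55 ± 0.36 against the mean of the others, adjusted p = 4.3e-21 in edgeR). It had no UMI in cortex nuclei of the grouped libraries, so the size of this fold depends on how edgeR treats zeros. Kcna6 was at 265, 529, 337, 483 and 277 CPM (9.27 ± 0.28, adjusted p = 1.8e-36) and Kcna2 at 132, 124, 205, 198 and 210.0 CPM (8.89 ± 0.35, adjusted p = 6.0e-28). In no other of the 12 classes tested did the mean of any of these 3 genes exceed 3.08 CPM. Kcna1 and Kcna6 lie near each other on the minus strand of chromosome 6 of GRCm38, at 126640397 to 126646384 and 126708329 to 126740674 in GENCODE M21. Kcna5, between 126532551 and 126535412 on the same strand, had 14 UMIs in the 5 grouped libraries and averaged 1.85 ± 1.49 CPM in medulla nuclei with none in cortex nuclei. Kcnq5 was at 3763, 4384, 3045, 3145 and 1546 CPM, Kcnh8 at 75.6, 124, 113, 86.7 and 239 CPM, Kcnj12 at 94.5, 93.3, 95.1, 86.7 and 105 CPM and Kcnk5 at 340.4, 155, 194, 186 and 181 CPM in Schwann or sustentacular-like nuclei, the highest mean of the 12 classes for each. Kcnq5 overlapped there with T or NK-like nuclei, and Kcnk5 with inner cortex-like nuclei. Kcnj10, the glial rectifier Kir4.1, was at 142, 124, 132, 99.1 and 28.6 CPM there and overlapped with macrophage-like nuclei, at 66.0, 45.9, 27.1, 43.8 and 35.6 CPM.

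Immune classes had their own leading members. Kcnk13 was at 315, 475, 473, 369 and 483 CPM in macrophage-like nuclei (7.28 ± 0.17, adjusted p = 1.0e-44), and THIK-1 is the main leak channel of microglia, the macrophages of the brain. Kcnk6, TWIK-2, was at 31.9, 61.2, 60.6, 25.04 and 55.3 CPM in the same nuclei (6.14 ± 0.32, adjusted p = 2.7e-24). In T or NK-like nuclei, Kcnq5 was at 3278, 335, 2129, 1255 and 2489.8 CPM (5.77 ± 0.22, adjusted p = 1.8e-32), with KO 2 far below the rest. Kcnn4, which sustains calcium entry in activated lymphocytes, was at 163, 0, 42.2, 25.1 and 67.7 CPM (6.04 ± 0.58, adjusted p = 1.6e-12) on 36 UMIs, none of them in KO 2, and Kcnk1 averaged 19.7 ± 13.7 CPM on 10 UMIs (4.15 ± 0.67). B or plasma-like nuclei were too few to test, and their Kcnq5 was at 1686, 1276, 2782, 1041 and 1119 CPM. Their Kcnn4, at 0, 70.9, 64.1, 173 and 25.7 CPM on 16 UMIs, overlapped with that of T or NK-like nuclei and had the higher mean, 66.8 CPM beside 59.7 CPM. The lymphocyte channel Kcna3 had 4 UMIs in all 6 libraries and was not tested.

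In the vessels, endothelial-like nuclei were led by Kcnq1, at 371, 464, 501, 369 and 217 CPM (5.43 ± 0.21, adjusted p = 1.6e-32). It was highest in cluster 1, the largest of 4 endothelial-like clusters, at 541, 661, 721, 513 and 319.7 CPM, and at 74.7, 14.1, 91.5, 147 and 65.1 CPM in cluster 9 and 228, 271, 264, 211 and 108 CPM in cluster 11. These differences between endothelial clusters were not tested. Pericyte or smooth muscle-like nuclei had Kcnt2 at 1117, 1379.8, 1513, 1204 and 1524 CPM (6.72 ± 0.15, adjusted p = 8.9e-46). Kcnj8, the vascular ATP-sensitive pore Kir6.1, was at 30.1, 54.8, 30.2, 46.3 and 35.2 CPM there (5.6 ± 0.42, adjusted p = 3.0e-17), and its partner Abcc9 was among the 10 leading genes of that cluster. Kcnn3 averaged 40.3 ± 30.5 CPM in these nuclei (4.78 ± 0.43), with libraries at 26.3, 87.6, 49.8, 30.9 and 7.04 CPM.

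Capsule or fibroblast-like nuclei had Kcnt2 at 387, 725, 563, 561 and 676 CPM (5.33 ± 0.15), Kcnd3 at 615, 635, 552, 767 and 799.8 CPM (4.71 ± 0.14) and Kcnb2 at 147, 302, 219.6, 336 and 125 CPM (4.16 ± 0.19). Gata4 stroma-like nuclei had Kcnj3 at 141, 219, 125, 165 and 154 CPM (5.48 ± 0.22, adjusted p = 9.4e-32), above chromaffin-like nuclei in each library. Adipocyte-like nuclei had Kcnj15 at 37.996, 44.9, 51.3, 22.9 and 52.0 CPM (8.24 ± 0.40, adjusted p = 5.5e-19) and Kcns3 at 54.0, 37.4, 45.4, 45.7 and 17.3 CPM (4.96 ± 0.39, adjusted p = 1.2e-16). The calls of Kcnj15 here and of Kcna1 in Schwann or sustentacular-like nuclei were not made by DESeq2 (adjusted p = 0.097 and 0.18), while every library of the leading class exceeded every library of the class next in mean level for both genes. In zona fasciculata-like nuclei Kcnn2 (3.40 ± 0.13) and in inner cortex-like nuclei Kcnk5 (2.32 ± 0.24) had the largest folds.

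KO against WT, no member passed the test in any of 7 classes. The counts of members called were 0 higher and 0 lower in cortex, medulla and other nuclei and in zona glomerulosa-like, zona fasciculata-like, endothelial-like and capsule or fibroblast-like nuclei. DESeq2 also called none. Over all genes edgeR called 0% in cortex, medulla, other, zona fasciculata-like and capsule or fibroblast-like nuclei. In zona glomerulosa-like nuclei it called 0.165% higher and 0.217% lower, and in endothelial-like nuclei 0.00949% in each direction. At an unadjusted p under 0.05 there were 3 of 32 members tested in cortex (9.38%, beside 5.31% of all genes), 6 of 36 in medulla (16.7%, beside 5.25%) and 4 of 46 in other nuclei (8.70%, beside 7.10%). Such members were 2 of 20 in zona glomerulosa-like nuclei (10.0%, beside 11.3% of all genes), 1 of 26 in zona fasciculata-like nuclei (3.85%, beside 2.21%), 3 of 18 in endothelial-like nuclei (16.7%, beside 3.47%) and 1 of 14 in capsule or fibroblast-like nuclei (7.14%, beside 4.08%). The KO effect in medulla minus that in cortex had 5 of 42 (11.9%, beside 4.37%), with none called by either tool.

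The members with the smallest p-values are given as values. Kcnq1 in cortex nuclei had 4.76 and 5.66 CPM in KO 1 and KO 2 beside 14.2, 55.8 and 12.6 CPM in the 3 WT libraries, with the unassigned library at 12.8 CPM (-2.02 ± 0.62, adjusted p = 0.84 in edgeR). The KO levels rest on 51 UMIs in KO 1 and 11 in KO 2. Both KO libraries lay below all 3 WT libraries, also within each gene list (KO 1 beside WT 1, and KO 2 beside WT 2 and WT 3), and WT 2 stood apart. Without WT 2 the log2 fold was -1.48 and passed the test, as it did without WT 3 (-2.24). Both KO libraries also lay below all 3 WT libraries in zona glomerulosa-like and zona fasciculata-like nuclei. The levels were 5.50 and 8.02 CPM in KO and 16.1, 91.4 and 15.4 CPM in WT in the former. They were 3.83 and 3.61 CPM in KO and 13.1, 34.7 and 13.9 CPM in WT in the latter, with adjusted p = 0.31 and 1.00 in edgeR. In endothelial-like nuclei, where Kcnq1 was highest, KO and WT libraries overlapped. The share of free RNA from endothelial-like nuclei in cortex nuclei was not measured. Kcnq1ot1, a noncoding RNA, overlaps Kcnq1 on the other strand, and the sources used here do not say whether strand entered the counting.

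Kcnq3 in cortex nuclei had 85.2 and 74.7 CPM in KO 1 and KO 2 beside 86.5, 221 and 271 CPM in the 3 WT libraries (-0.96 ± 0.34, adjusted p = 0.84 in edgeR), and it passed without WT 2 (-0.95) or WT 3 (-0.75). In zona glomerulosa-like nuclei Kcnq3 had 189 and 135 CPM in KO 1 and KO 2 beside 184, 483 and 659 CPM in the 3 WT libraries, so that KO 1 and WT 1 were level (-1.01 ± 0.35, adjusted p = 0.31 in edgeR). Without KO 2 its log2 fold was 0.0092. Kcnh8 in cortex nuclei had 1.40 and 3.09 CPM in KO 1 and KO 2 beside 0.502, 0.988 and 0.563 CPM in the 3 WT libraries on 41 UMIs. Kcnk5 in zona glomerulosa-like nuclei was at 22.0 and 10.3 CPM beside 23.9, 27.4 and 23.2 CPM. In medulla nuclei Kcnn2 had 53.4 and 61.9 CPM in KO 1 and KO 2 beside 32.1, 36.2 and 36.0 CPM in the 3 WT libraries, with no overlap (0.73 ± 0.20, adjusted p = 0.85). These are the background levels of Kcnn2 described above. Kcnt1 was at 27.7 and 30.2 CPM beside 16.3, 10.3 and 17.5 CPM (0.86 ± 0.31), and Kcnb2 at 426 and 327 CPM beside 555, 447 and 412 CPM (-0.41 ± 0.15), all with adjusted p of at least 0.85. The unassigned library was at 48.6 CPM for Kcnn2, between the groups, and at 24.2 CPM for Kcnt1, also between them.

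In other nuclei Kcnk2 had 30.8 and 72.3 CPM in KO 1 and KO 2 beside 13.8, 35.0 and 39.4 CPM in the 3 WT libraries (1.03 ± 0.18, adjusted p = 0.38), Kcnj3 had 19.9 and 75.9 CPM beside 13.6, 27.7 and 31.6 CPM (1.00 ± 0.24, adjusted p = 0.41), and Kcnk5 had 59.4 and 52.4 CPM beside 33.8, 43.3 and 29.7 CPM (0.66 ± 0.22). Of the Kcnk5 UMIs of KO 1, 85 were in hepatocyte-like nuclei, at 137 CPM, and without these nuclei the fold of Kcnk5 was 0.53. KO 2 was the highest library for Kcnk2 and Kcnj3. Gata4 stroma-like nuclei, where both genes were high, made up 14.3% of the nuclei of KO 2, 4.31% of KO 1 and 2.21, 5.69 and 7.84% of WT 1 to WT 3. The part of this share in the result was not tested. Within Gata4 stroma-like nuclei Kcnk2 had 184 and 182 CPM in KO 1 and KO 2 beside 70.2, 165 and 177 CPM in the 3 WT libraries, so both KO libraries lay above all WT libraries, narrowly so for WT 3, and this class alone was not tested for KO against WT.

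In endothelial-like nuclei Kcnt2 had 19.4 and 61.7 CPM in KO 1 and KO 2 beside 6.37, 13.6 and 7.75 CPM in the 3 WT libraries (2.12 ± 0.40, adjusted p = 0.18). Kcnk5 was at 67.0 and 83.9 CPM beside 31.2, 39.3 and 17.6 CPM (1.35 ± 0.31, adjusted p = 0.38), and Kcnmb2 at 24.5 and 12.3 CPM beside 5.66, 8.13 and 5.17 CPM (1.70 ± 0.47, adjusted p = 0.84). For these 3 genes both KO libraries lay above all WT libraries. The Kcnmb2 levels, however, were within or below the free RNA share of other nuclei, 0.633 to 3.91% of the medulla level. In KO 1, 41 of the Kcnmb2 UMIs were in cluster 9, an endothelial-like cluster. There KO 1 was at 102 CPM, above that free RNA range of its medulla level. KO 2 and WT 1 to WT 3 were at 0, 6.18, 16.4 and 7.81 CPM in cluster 9. Kcnt2 and Kcnk5 passed the test when WT 2 was left out, with a fold of 2.18 for Kcnt2. Neither passed without WT 3, where the folds were 1.81 and 1.08. Without WT 1, KO 1 was the only library of its gene list, so the fit compared KO 2 with WT 2 and WT 3. The fold was then 2.64 for Kcnt2 and 1.69 for Kcnk5. Without KO 1, which leaves the same comparison, the folds were 2.63 and 1.68. Calls of these fits are not given, because each rests on KO 2 as its only KO library. Kcnmb2 went the other way in capsule or fibroblast-like nuclei, at 17.8 and 4.32 CPM in KO and 65.7, 38.2 and 33.7 CPM in WT (-2.11 ± 0.47, adjusted p = 0.31), and it passed without WT 2 or WT 3. By the range pooled over genes and libraries, these Kcnmb2 levels, too, were within or below the free RNA share of the medulla level. Library by library, however, the share in each WT library lay above that of all 5 chromaffin reference genes in other nuclei. In both KO libraries it lay below them all. The part of free RNA in this difference was not tested. Kcnq5 (-0.59 ± 0.39) in capsule or fibroblast-like nuclei, and Kcnh2 (1.03 ± 0.52) and Kcnq5 (0.86 ± 0.54) in zona fasciculata-like nuclei, had adjusted p = 1.00. Of the partner proteins and of the other channel genes, 0 were called in any class, with medians of 0.20 and 0.09 in cortex and 0.11 and -0.04 in medulla nuclei.

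**Figure D5:**
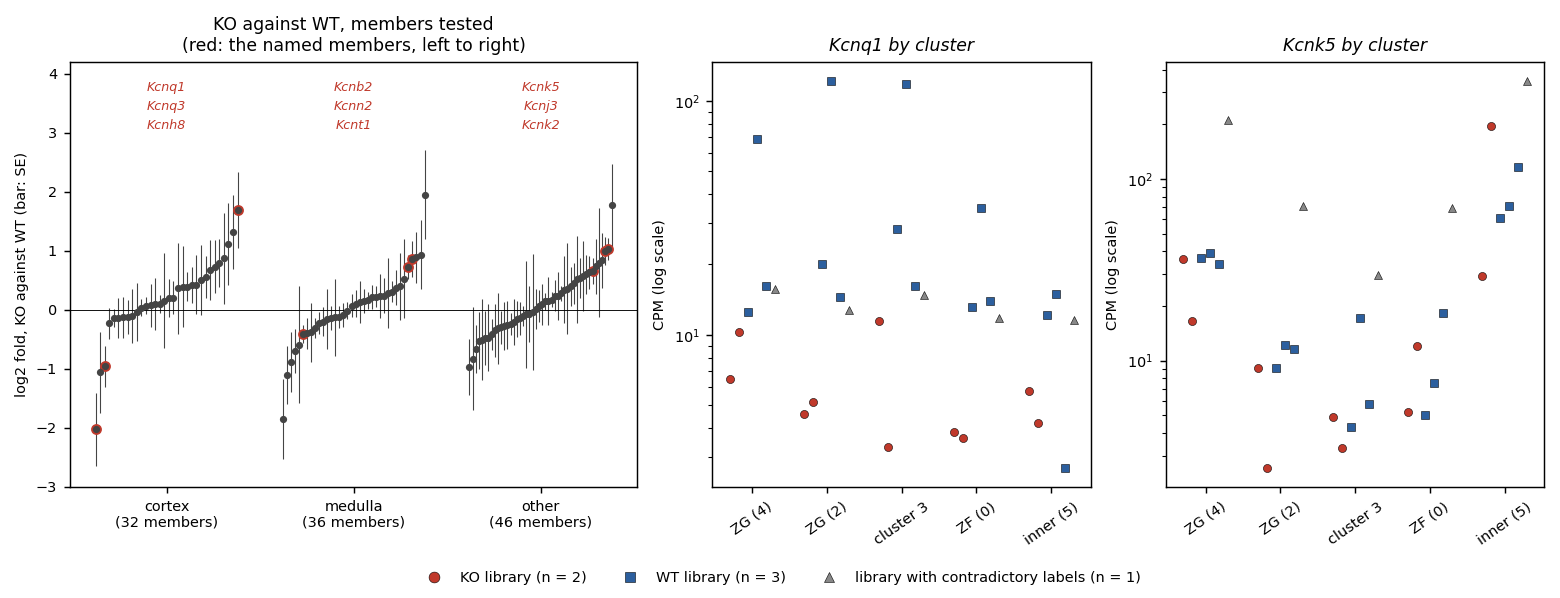
Left: log2 fold KO against WT with its SE for every member tested in cortex, medulla and other nuclei, with the 3 smallest p-values per class in red. Right: CPM on a log axis of Kcnq1 and Kcnk5 in 4 cortical clusters and the unnamed cluster 3, 1 point per library, where points at 0 would be left out. No member passed the test, and Kcnq1 is lower in both KO libraries than in all WT libraries in 4 of the 5 clusters.

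Members with few counts could not be placed. Those with no UMI in the 6 libraries were Kcna10, Kcne1, Kcnk15, Kcns1 and Kcnv1. In medulla nuclei Kcna4 was at 10.8, 7.198, 7.46, 3.104 and 1.03 CPM against 0.0369 CPM in cortex nuclei, with 70 of its 74 UMIs in the grouped libraries in medulla nuclei, and was not tested. In the grouped libraries Kcne3 had 54 UMIs, with 0 in medulla nuclei, and Kcne4 had 33. Levels are per UMI and not per transcript length, and fewer nuclei of a type cannot be told from less RNA per nucleus in a broad sum, so the level of 1 member was not ranked against that of another.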

How the data were processed

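Single-nucleus RNA was read from frozen mouse adrenal glands in 6 libraries made with a droplet 3′ kit. The values used are UMI counts per gene and barcode, deposited by the authors as filtered matrices and made with Cell Ranger against mm10, per the submitters' processing notes. Seurat is also listed there. Per the file headers the version was 4.0.0 with 32285 genes for KO 1 and WT 1 and 3.1.0 with 31053 genes for the other libraries, and the 30406 genes in both lists were used. The sources used here do not state whether intronic reads and strand entered the counting.

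Of 21724 barcodes, 48 had under 300 genes or 5% or more of mitochondrial UMIs and were dropped, as were 641 called doublets at a preset rate of 0.8% per 1000 barcodes. The caller's own threshold marked 521. The 21035 nuclei left were clustered with scanpy 1.11.5 and leidenalg 0.10.2 (resolution 0.8), after library alignment and without the genes described here. UMIs were summed per library and class and tested with edgeR 4.0.16 (R 4.3.3): TMM scaling, low-count filter, quasi-likelihood test, Benjamini-Hochberg adjustment over all genes, threshold 0.05. Class contrasts had the library as a block, and KO against WT had the gene list (Cell Ranger version) as a covariate, with the unassigned library left out. The fits were tested on simulated data, whose spread between libraries was set and not taken from these libraries. KO against WT then recovered 58.9% of genes with a true log2 fold of 1 in medulla and 62.2% in cortex. With a true log2 fold of 2 it recovered 96.9% and 97.9%. With 2 KO and 3 WT libraries a permutation of single values could not go below p = 0.1, so none was run. P-values measure the spread between these libraries.

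The members and the gene lists were chosen with earlier results of these data known. Genes named for KO against WT were the 3 members with the smallest p-values per class. For class contrasts they were the called members with the largest folds, up to 10 (medulla against cortex), 6 (the other pairs) or 3 (each class) per direction, and further members were named after their values were seen. Alternatives were DESeq2 1.42.0, its size factors in edgeR, no low-count filter, coarser or finer clusters, doublets kept, each library left out, other batch or block terms, and the unassigned library counted in either group. A planned print of protein stretches was not run. The values of some members are not reported here, while counts of members include them.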

Additional observations from a re-analysis of the deposited data

Results flagged for a closer look

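Kcnk5, the gene of the alkaline-activated leak channel TASK-2, stood apart in the library whose title and genotype field contradict each other. Cortex nuclei of that library were at 139 CPM, with a 95% Poisson interval of 132.0 to 147 CPM that covers counting error only. The highest of the 5 grouped libraries was WT 3 at 36.4 CPM, with an upper bound of 40.6 CPM, and the highest upper bound was that of KO 2, 43.2 CPM on 66 UMIs. The library enters comparisons only in the alternatives that count it in a group. It was higher there in each of 4 cortical clusters and in the unnamed cluster 3. Of these, cluster 4, zona glomerulosa-like, was at 210.4 CPM with Kcnk5 UMIs in 132 of 254 nuclei, and cluster 5, inner cortex-like, at 345.6 CPM with UMIs in 102 of 199 nuclei. In medulla nuclei the same library had 0 Kcnk5 UMIs.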

How the results depend on the processing

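The counts of members called between classes were within 1.5 times the main count under all alternatives run, except that members higher in chromaffin-like cluster 7 numbered 5 without a low-count filter, and 2 to 5 when single libraries were left out (2 without WT 1, 5 without KO 2 or WT 2), and that members higher in at least 1 of 12 classes numbered 62 of 77 without the filter, the 41 included, beside 68.8% of all genes. Higher in cluster 7 were 5.38% of all genes without the filter and 7.37 to 9.19% with single libraries left out. KO against WT, leaving out the filter called members: 2 lower in cortex (Kcnq1 and Kcnq3), 1 higher in medulla (Kcnc2), 2 higher in other nuclei (Kcnj3 and Kcnk2), 2 lower in zona glomerulosa-like (Kcnq1 and Kcnq3), 1 lower in zona fasciculata-like (Kcnq1), 2 higher in endothelial-like (Kcnk5 and Kcnt2) and 1 lower in capsule or fibroblast-like nuclei (Kcnmb2), and 1 for the KO effect in medulla minus cortex (Kcnq3). The filter's absence also raised the shares of all genes called in these directions: 0.242, 0.437, 2.71, 0.711, 0.0331, 0.204, 0.0168 and 0.133% in the same order, beside 58 to 75 members tested. Leaving out single libraries gave 0 to 2 lower in cortex (2 without WT 2 or WT 3). It gave 0 to 1 higher in medulla (1 without WT 3). In zona glomerulosa-like nuclei 0 to 2 were lower and in zona fasciculata-like nuclei 0 to 1 (both without WT 3). Endothelial-like nuclei had 0 to 2 higher (2 without WT 2). Calls of the endothelial-like fit without WT 1 are left out here, because it rests on KO 2 as its only KO library. Capsule or fibroblast-like nuclei had 0 to 1 lower (1 without WT 2 or WT 3). In these directions 0.72 and 0.447% of all genes were called in cortex without WT 2 and WT 3. Without WT 3 the shares were 0.791% in medulla, 1.14% in zona glomerulosa-like and 0.00873% in zona fasciculata-like nuclei. They were 0.35% in endothelial-like nuclei without WT 2, and 0.26 and 0.0578% in capsule or fibroblast-like nuclei without WT 2 and WT 3. The cause was not tested. Directions reversed for Kcnq3 in zona glomerulosa-like nuclei without KO 2 (0.0092, in a range from -2.09), for Kcnk5 there when the unassigned library joined the KO group (1.13), and for Kcnq5 in capsule or fibroblast-like nuclei without KO 1 (0.50) or WT 1 (0.51), in a range from -1.18. Leaving out 1 KO library leaves that arm with 1 sample, assumed to vary like the rest. Leaving out WT 1 does much the same, because KO 1 is then the only library of its gene list. For KO against WT, the fits without KO 1 and without WT 1 therefore both compare KO 2 with WT 2 and WT 3. Leaving hepatocyte-like nuclei out of other nuclei was chosen after seeing the data. No paired analysis was possible because the labels give no replicate numbers. KO 2, with the fewest UMIs, limits members of low level.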
